A study of Mus musculus with 4 samples.

Results

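The regions described here are 1633 broad Sub1 domains at the ends of genes in mouse haematopoietic stem cells and leukaemic stem cells. Peaks from 4 CUT&Tag peak lists were merged where they overlapped by at least 1 bp on the main chromosomes, which gave 285131 union regions. A region was taken as a domain when it held a peak of at least 4000 bp in at least 1 library of each cell population and lay within 1 kb of an end of a protein-coding gene in the RefSeq annotation of mouse build GRCm38 (mm10). The domains were 0.573% of all union regions, 6.33% of the 25782 regions at gene ends and 17.2% of the 9497 gene-end regions that held a peak in all 4 libraries. Each of the 1633 domains held a peak in every library. They were chosen by their peak lengths and their position at a gene end, so lengths are described below without a test.

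CUT&Tag tethers a transposase to an antibody bound to chromatin, so that DNA near the target is cut and sequenced. The labels give 2 libraries from normal HSCs, sorted from bone marrow as CD48-CD150+LSK cells, and 2 from LSCs, sorted as CD16/32+ and CD34+ cells among lineage-negative cells with c-Kit and without Sca-1, from mice with leukaemia driven by MLL-AF9. All 4 came from Nup214fl/+ mice, which carry 1 floxed allele of a nuclear pore gene, and no library of another genotype or with a control antibody enters the comparisons. The number of mice behind each library is not stated, so the spread between libraries may be technical, and the label for cell type reads haematopoietic stem cell for all 4. The names of the peaks carry a prefix with H4 in it that the labels do not explain, so the identity of the target as Sub1 rests on the labels.

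Sub1, also called PC4, is an abundant chromatin-associated protein that binds single-stranded DNA and acts as a cofactor of RNA polymerase II transcription. It works with general transcription factors at promoters and has been linked to elongation, termination and repair of DNA during transcription. HSCs are the self-renewing cells from which all blood lineages arise, and the LSCs sorted here have the surface markers of granulocyte and monocyte progenitors, a stage at which MLL-AF9, a fusion of a histone methyltransferase with an elongation factor partner, sustains leukaemia.

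The libraries differed widely in the number of peaks. The lists held 115881 peaks in HSC 1, 235680 in HSC 2, 41097 in LSC 1 and 34185 in LSC 2, and the read depth behind them is unknown because the lists hold no counts. Peak fold over background, as the authors deposited it, was therefore compared between libraries as a percentile, the rank of a region's strongest peak within its library among the 15337 regions with a peak in all 4 libraries. With 2 libraries against 2, an exact permutation test over the 6 assignments cannot give a two-sided p under 0.33. Genes of the sort markers were partly occupied. Fcgr3, which encodes CD16, lay at a domain. The LSCs were sorted as positive for CD16, yet the fold percentile of the Fcgr3 domain was higher in both HSC libraries. Kit and Cd48 were occupied at a gene end in all 4 libraries. Ly6a, which encodes Sca-1, had one in both HSC libraries and in neither LSC library. Slamf1, which encodes CD150, had one in HSC 2 alone, and Cd34 had one in HSC 2, LSC 1 and LSC 2. Of markers of other cell types, 1 erythroid, 1 megakaryocyte and 1 B cell gene and none of 16 T and NK cell, 10 mast cell and eosinophil and 14 endothelial and stromal genes lay at a domain.

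Promoters of genes that recur in the results are shown first, to set the sequence of the granulocyte genes beside that of other genes. Each window runs from 250 bases before to 50 after the gene start in RefSeq (GRCm38.p6), 5′ to 3′. Of 7 short motifs searched on both strands by their exact letters, 6 are reported. They are the TATA box as TATAAA, the CCAAT box by the letters of its name, the GC box of Sp1-type factors as GGGCGG, an ETS site as CCGGAAG, an E-box as CACGTG and a cAMP response element as TGACGTCA. Capitals mark every match of a motif or of its reverse complement.
Elane promoter, chr10:79886062-79886361, plus strand: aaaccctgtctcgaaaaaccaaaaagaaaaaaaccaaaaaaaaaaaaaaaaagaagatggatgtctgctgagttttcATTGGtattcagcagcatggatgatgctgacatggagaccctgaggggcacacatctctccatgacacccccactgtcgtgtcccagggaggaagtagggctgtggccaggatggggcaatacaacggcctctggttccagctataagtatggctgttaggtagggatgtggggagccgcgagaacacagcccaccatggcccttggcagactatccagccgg
Prtn3 promoter, chr10:79879417-79879716, plus strand: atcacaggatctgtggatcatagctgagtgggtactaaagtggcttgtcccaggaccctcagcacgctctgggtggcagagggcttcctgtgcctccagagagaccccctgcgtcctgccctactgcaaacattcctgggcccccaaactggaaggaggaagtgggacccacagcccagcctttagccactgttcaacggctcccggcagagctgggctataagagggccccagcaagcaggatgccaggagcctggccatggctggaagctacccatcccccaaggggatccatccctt
S100a8 promoter, chr3:90668821-90669120, plus strand: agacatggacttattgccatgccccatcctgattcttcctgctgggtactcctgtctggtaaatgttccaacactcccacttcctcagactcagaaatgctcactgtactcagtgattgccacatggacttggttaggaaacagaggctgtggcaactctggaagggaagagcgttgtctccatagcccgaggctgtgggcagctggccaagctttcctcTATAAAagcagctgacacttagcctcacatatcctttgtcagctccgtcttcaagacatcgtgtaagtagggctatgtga
S100a9 promoter, chr3:90695672-90695971, minus strand: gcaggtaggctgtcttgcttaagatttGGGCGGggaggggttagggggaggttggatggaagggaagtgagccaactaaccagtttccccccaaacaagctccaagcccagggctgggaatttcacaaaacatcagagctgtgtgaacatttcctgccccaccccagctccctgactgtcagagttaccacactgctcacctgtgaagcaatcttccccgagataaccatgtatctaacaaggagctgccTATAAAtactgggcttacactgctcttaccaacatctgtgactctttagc
Hjurp promoter, chr1:88277530-88277829, minus strand: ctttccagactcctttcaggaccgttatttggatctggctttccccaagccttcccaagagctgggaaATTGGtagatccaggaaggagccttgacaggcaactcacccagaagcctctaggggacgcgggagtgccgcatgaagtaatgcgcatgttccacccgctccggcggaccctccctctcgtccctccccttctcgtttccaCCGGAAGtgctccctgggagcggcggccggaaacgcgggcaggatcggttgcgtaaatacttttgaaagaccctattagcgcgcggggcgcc
Zfp36 promoter, chr7:28379179-28379478, minus strand: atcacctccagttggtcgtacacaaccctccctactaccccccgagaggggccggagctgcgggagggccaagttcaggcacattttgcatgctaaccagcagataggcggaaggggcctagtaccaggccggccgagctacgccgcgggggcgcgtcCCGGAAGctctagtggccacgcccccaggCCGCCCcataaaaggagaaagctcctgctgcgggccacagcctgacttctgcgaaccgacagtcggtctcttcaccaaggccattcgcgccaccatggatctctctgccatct
Fos promoter, chr12:85473640-85473939, plus strand: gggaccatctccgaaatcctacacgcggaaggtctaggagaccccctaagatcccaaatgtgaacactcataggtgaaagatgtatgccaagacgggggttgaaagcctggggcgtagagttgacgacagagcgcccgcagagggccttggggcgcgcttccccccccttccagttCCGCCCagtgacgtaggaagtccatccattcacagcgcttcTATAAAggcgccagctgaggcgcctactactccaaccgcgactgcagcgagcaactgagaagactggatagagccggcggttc
Myb promoter, chr10:21160935-21161234, minus strand: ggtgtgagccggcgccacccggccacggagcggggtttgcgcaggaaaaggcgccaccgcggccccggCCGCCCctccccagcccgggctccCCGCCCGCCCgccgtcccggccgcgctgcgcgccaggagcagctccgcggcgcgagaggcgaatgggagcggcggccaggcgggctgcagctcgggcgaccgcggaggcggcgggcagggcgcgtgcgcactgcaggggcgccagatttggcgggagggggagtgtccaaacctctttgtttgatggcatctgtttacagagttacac

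Observed over expected CpG differed between these windows. It was 0.31 at Elane, 0.15 at Prtn3, 0.21 at S100a8 and 0.10 at S100a9, genes of granulocyte granules and calcium-binding proteins. It was 0.83 at Hjurp, which encodes the chaperone of the centromeric histone, 0.70 at Zfp36, which encodes an mRNA decay factor, 0.77 at Fos and 0.95 at Myb, which encode transcription factors. Windows that were read but are not shown had 0.55 at Tap1, 0.56 at Tapbp, 0.60 at Psmb9, 0.67 at Junb and 0.88 at Creb1. The gap between the low and high values thus depends on the windows shown. Among the windows shown, TATAAA matched in those of S100a8, S100a9 and Fos. The Prtn3 window held none of the 6 motifs, which says only that these letters are not in it.

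The promoters at domains resembled those at shorter shared peaks. The median observed over expected CpG was 0.802 over 2389 promoters of 1939 domain genes and 0.791 over 7085 promoters at the 7864 gene-end regions that held a peak in all 4 libraries but no long peak in both populations, called short shared regions below. Over all 21262 coding promoters in the sequence table it was 0.567. The median GC content followed the same order, at 61.7%, 61.3% and 56.3%. GGGCGG occurred in 66.5% of domain promoters, 66.7% of short shared promoters and 46.2% of all, and CCGGAAG in 20.6%, 21.9% and 11.6%. TATAAA was found in 7.12% of domain promoters, 5.82% of short shared promoters and 12.6% of all. CCAAT occurred in 38.6%, 39.7% and 38.2%, CACGTG in 10.5%, 11.0% and 7.84%, and TGACGTCA in 2.39%, 3.90% and 2.23%, in the same order of sets. The widest relative gap between domains and short shared regions was that of TGACGTCA, and the low CpG of the 4 granulocyte promoters was not typical of the domains. Promoters on chromosome 18 were not analysed here.

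**Figure D1:**
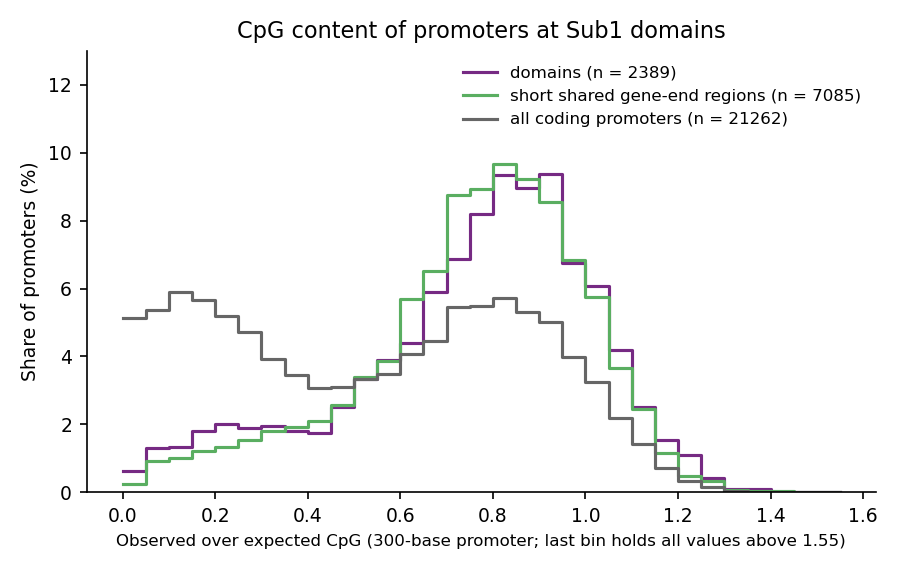
Distribution of observed over expected CpG in 300-base promoter windows, as the share of promoters in each bin, for domain genes, short shared gene-end regions and all coding promoters. The domain and short shared curves both peak above 0.6, and the curve of all promoters has a second group of low values that both occupied sets hold less of.

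Domain length varied between libraries as much as between populations. The whole region spanned 4125 to 52447 bp, with a median of 8468 bp and quartiles of 6609 and 11947 bp, and the domains covered 16.5 Mb in all. The longest peak within a domain had a median of 4970 bp in HSC 1, 5359 bp in HSC 2, 4270 bp in LSC 1 and 5525 bp in LSC 2. LSC 1 was the lowest and LSC 2 the highest, so the groups overlapped, at 5164.5 ± 275 bp in HSCs and 4897.5 ± 887 bp in LSCs (SD, n = 2 libraries each). A peak of at least 4000 bp was present in 1195 domains in HSC 1, 1382 in HSC 2, 995 in LSC 1 and 1548 in LSC 2. All 4 libraries had one in 626 domains, 3 libraries in 602 and 2 libraries in 405. The rank correlation of the longest peak between libraries over the 1633 domains lay between 0.30 and 0.50, and that of peak fold between 0.56 and 0.83. These correlations are across regions of the same libraries and are given as a description.

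**Figure D2:**
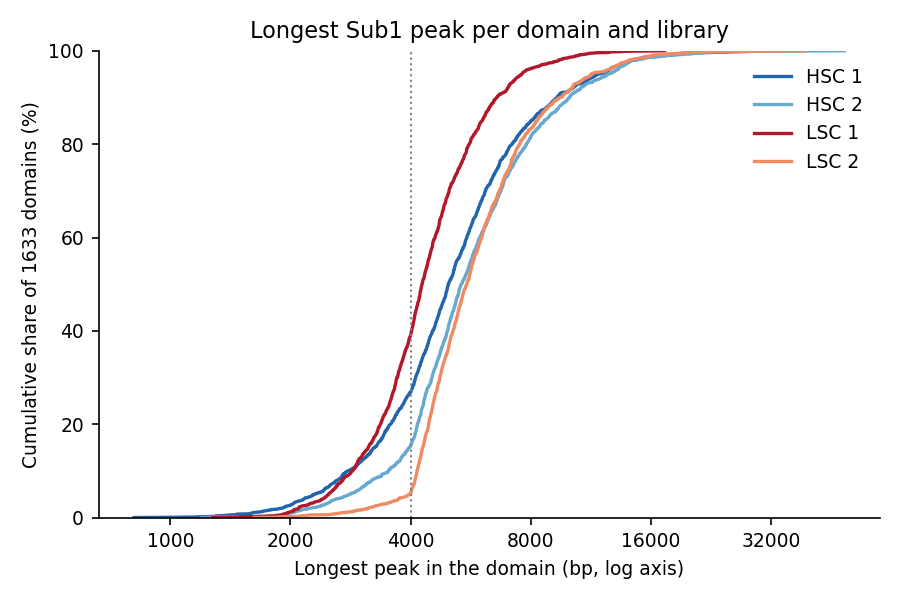
Cumulative share of the 1633 domains against the length of the longest peak in each library, on a log axis, with the dotted line at 4000 bp. LSC 1 lies to the left, with a median of 4270 bp, and the other 3 libraries have medians from 4970 to 5525 bp.

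The selection had a sharp edge in a dense range of lengths. The deciding length was the shorter of the 2 populations' longest peaks. It was 4000 bp at Slain2 and at the shared region of Dnajb4 and Fubp1, and 4001 bp at Gid4, the domains just inside. Just outside lay Rpl38 at 3998 bp, and Mpc1 and H2-Q6 at 3996 bp each. Between 4000 and 4500 bp there were 450 domains, and 627 gene-end regions lay between 3500 and 4000 bp. Long peaks at gene ends were present in HSCs alone in 699 regions and in LSCs alone in 891, and 199 regions long in both populations lay away from gene ends.

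Domains were a large part of the occupied sequence in libraries with few peaks. They held 4.63% of the peaks in HSC 1, 1.84% in HSC 2, 10.6% in LSC 1 and 10.2% in LSC 2, and 17.6%, 9.11%, 22.0% and 24.8% of the covered length in the same order. A domain was covered by a single peak in 251, 434, 522 and 685 cases, which is 15.4%, 26.6%, 32.0% and 41.9%. Both LSC libraries were above both HSC libraries here, and both LSC lists also held fewer peaks. With lists cut to the same number of strongest peaks the difference between the population means was 3.10 percentage points in place of 15.98. The covered share of a domain was highest in HSC 2, with a median of 88.0%, and lowest in LSC 1, with 64.4%, and HSC 1 and LSC 2 lay between, at 84.2% and 80.3%.

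Most domains sat at gene starts, and many reached both ends of a gene. An annotated start with known strand lay within 1 kb of 1379 domains (84.4%), against 75.8% of short shared regions. A known 3′ end lay within 1 kb of 581 domains (35.6%), against 17.8%, and 533 domains (32.6%) had both, against 10.3%. Only a 3′ end was near 17 domains (1.04%), against 6.40% of short shared regions. Strand was known for 17491 of 21883 genes, so these shares are lower limits in both sets. A longer region touches more gene ends, so these shares move with the length that chose the domains. The number of genes did so too. There was 1 protein-coding gene at 872 domains, 2 at 506 and 3 or more at 255, up to 10, and 761 domains (46.6%) had more than 1 gene, against 21.5% of short shared regions. The region spanned a median of 7590 bp with 1 gene and 14251 bp with 3 or more. A whole protein-coding gene lay inside 423 domains (25.9%), 662 genes in all.

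The genes at domains were compact. In all, 2663 of 21883 protein-coding genes (12.2%) had an end within 1 kb of a domain. Of the 10659 genes with a gene-end peak in all 4 libraries, 2631 (24.7%) did. The median length of the genes at domains was 12.6 kb, against 23.6 kb for the 8028 other genes with a gene-end peak in all 4 libraries and 17.2 kb for all protein-coding genes. A longer region touches more ends where genes are short, and 662 genes lay whole inside a domain. The gene lengths therefore also move with the length that chose the domains.

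The strongest point of a domain mostly lay close to a start, as it did in short shared regions. Both sets hold only regions within 1 kb of a gene end, so this closeness is partly set by selection. The summit of the strongest peak was within 1 kb of a protein-coding start in 71.2% of the 1603 domains outside chromosome 18 in HSC 1, 67.1% in HSC 2, 74.2% in LSC 1 and 73.1% in LSC 2. Both LSC libraries were above both HSC libraries, at 73.7% ± 0.794 against 69.2% ± 2.91 (SD, n = 2 each, two-sided exact permutation p = 0.33, the smallest possible). The short shared regions gave 69.8%, 66.8%, 72.3% and 71.3% in the same order, so the order of the libraries was the same there. The median distance to the start in domains was 462, 619, 406 and 502 bp, with overlapping groups (two-sided exact permutation p = 0.67, n = 2 each). In short shared regions it was 409, 544, 329 and 420 bp, shorter in every library. Of the domain summits within 1 kb, 71.8% in HSC 1, 73.3% in HSC 2, 79.3% in LSC 1 and 78.9% in LSC 2 lay on the gene side of the start. The 4 summits of a domain fell within 500 bp of each other in 866 domains (53.0%), with a median range of 451 bp, and they were more than 4000 bp apart in 118.

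At starts, the broad peaks reached further into the gene than upstream of it. In domains whose longest peak held a single gene end, a start of known strand, a median of 65.4% of that peak lay on the gene side in HSC 1 (686 domains), 65.3% in HSC 2 (626), 72.0% in LSC 1 (788) and 67.1% in LSC 2 (696). All 4 medians were above an even split, and the LSC libraries were above the HSC libraries, at 69.6% ± 3.49 against 65.3% ± 0.0666 (SD, n = 2 each, two-sided exact permutation p = 0.33). Where the single end was a 3′ end, the medians were 66.4% in HSC 1 (19 domains), 41.3% in HSC 2 (32), 69.8% in LSC 1 (10) and 46.6% in LSC 2 (17), with no common lean. The coverage around the start of the 697 domains with 1 gene also leaned into the gene. At 2 kb upstream a peak covered 52.1% of these domains in HSC 1, 54.4% in HSC 2, 22.96% in LSC 1 and 41.2% in LSC 2. At 2 kb downstream the shares were 85.9%, 88.8%, 84.9% and 93.7%. At 2 kb the libraries thus differed more upstream than downstream. At 4 kb the shares were 16.4%, 20.4%, 6.60% and 11.3% upstream and 48.8%, 54.4%, 33.1% and 43.9% downstream, a wider range downstream. In the 4567 short shared regions with 1 gene, the shares at 2 kb upstream were 12.0%, 14.8%, 4.42% and 9.02%, and at 2 kb downstream 29.0%, 37.3%, 31.6% and 37.2%, so the lean into the gene and the low upstream value of LSC 1 were also present there.

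**Figure D3:**
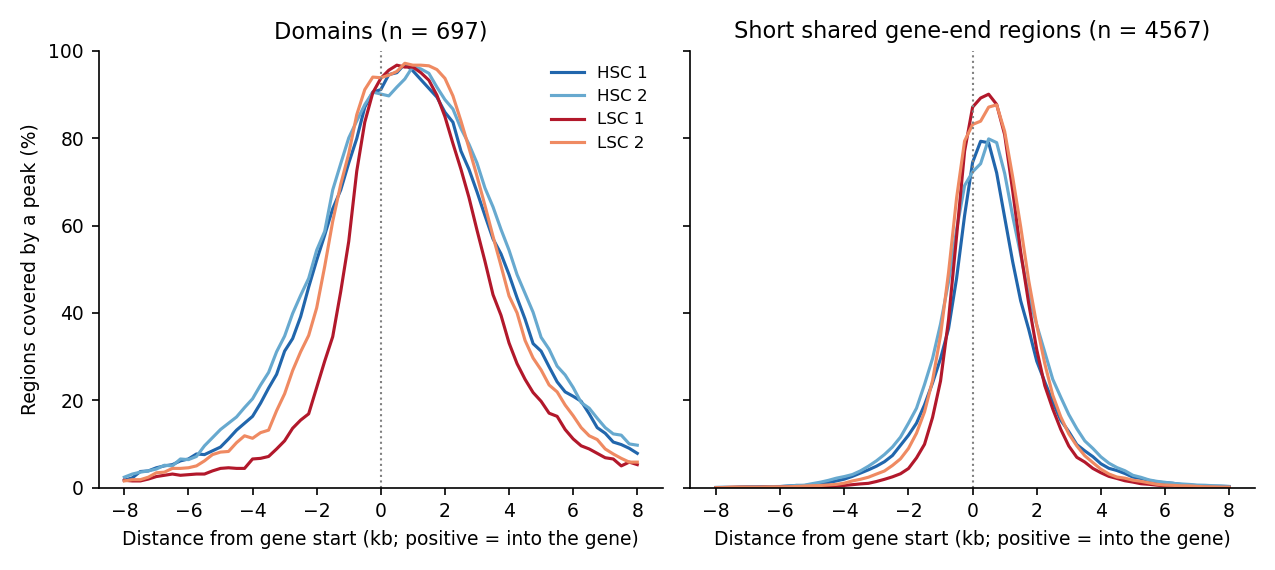
Share of regions covered by a peak against the distance from the gene start, with positive values into the gene, for domains with 1 gene (left) and short shared regions with 1 gene (right). Domain coverage is wider on the gene side in all 4 libraries, and LSC 1 falls fastest upstream, to 22.96% at 2 kb.

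The longest domains lay over clusters of short genes and over 1 array of repeated genes. The first by the median over libraries was chr6:47648112-47687024, which holds 5 predicted genes, among them Gm40365 and Gm40367, and copies of the small RNA gene Rn4.5s. Its longest peak was 37468 bp in HSC 1, 38835 bp in HSC 2, 15540 bp in LSC 1 and 38765 bp in LSC 2. LSC 1 was again the low library. The neighbouring Gm40363 domain at chr6:47737069-47754597 measured 17392, 17529, 6985 and 17320 bp. Both lie in near-identical copies, among which short reads are hard to place, and their values are uncertain for that reason.

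The second was the region of Rgl2 and Tapbp at chr17:33905095-33957541, with 10 genes. Tapbp encodes tapasin, which loads peptides onto MHC class I, and Daxx, a histone H3.3 chaperone, and Rps18, a ribosomal protein, lie within it. Its longest peak was 34325 bp in HSC 1, 48728 bp in HSC 2, 10218 bp in LSC 1 and 21556 bp in LSC 2, so both HSC libraries were above both LSC libraries. The Cracr2b and Pnpla2 domain at chr7:141434282-141479059 also holds Rplp2, a ribosomal stalk protein, and Polr2l, a subunit of RNA polymerases. It measured 18107, 24848, 12520 and 30802 bp, and the groups overlapped. The Zfp36 domain at chr7:28366887-28396645 also holds Paf1, of the elongation complex of the same name. It measured 25012, 20999, 11688 and 20643 bp, higher in both HSC libraries.

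The primary granule gene cluster was among the longest domains. Elane and Prtn3, which encode the serine proteases neutrophil elastase and proteinase 3, lie whole inside chr10:79862050-79889268. The longest peak was 15010 bp in HSC 1, 19049 bp in HSC 2, 13574 bp in LSC 1 and 19944 bp in LSC 2, with overlapping groups. The peak fold stood at a percentile of 98.0 in HSC 1, 98.4 in HSC 2, 99.65 in LSC 1 and 99.1 in LSC 2, higher in both LSC libraries. The next were those of Tm7sf2 and Vps51 on chromosome 19, Supt4a and Tspoap1 on 11 and Cirbp and Midn on 10. Their longest peaks lay between 5039 and 26817 bp, and LSC 1 was the lowest library at all of them but Supt4a and Tspoap1.

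**Figure D4:**
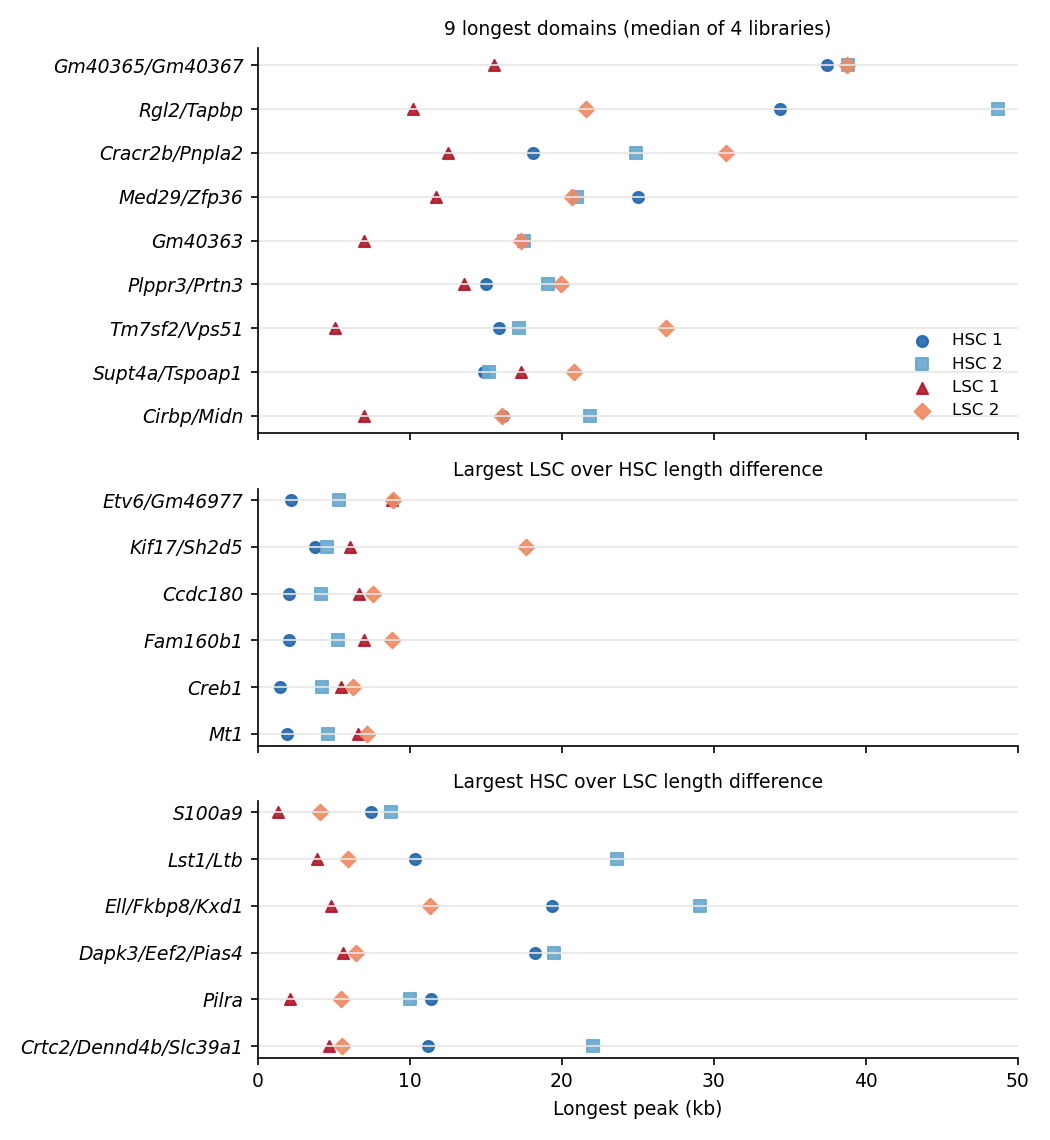
Longest peak in kb in each library, for the 9 longest domains and for the 6 domains with the largest length difference in each direction among those whose groups did not overlap. LSC 1 (dark red triangles) is the shortest library at most of the longest domains, and the Rgl2 and Tapbp domain ranges from 10218 to 48728 bp.

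The Supt4a and Tspoap1 domain at chr11:87744565-87765372 carries Mir142, a microRNA gene used as a mark of blood cells. The longest peak was 14855 bp in HSC 1, 15206 bp in HSC 2, 17313 bp in LSC 1 and 20808 bp in LSC 2, and Mir142 lay inside it in all 4 libraries. This was 1 of 74 domains that held 88 of 1228 annotated microRNA genes. For 83 of them the RefSeq table gave 138 mature sequences with 136 different seeds. For Mir150 it gave only the 3p product. Products of Mir425 and Mir26b and some other arms are left out below. Selected mature products of blood microRNAs at domains are shown 5′ to 3′ with the seed, bases 2 to 8, in capitals.
mmu-miR-142a-5p: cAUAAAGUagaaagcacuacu
mmu-miR-142a-3p: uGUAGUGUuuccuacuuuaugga
mmu-miR-150-3p: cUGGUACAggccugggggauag
mmu-miR-21a-5p: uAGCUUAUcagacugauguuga
mmu-miR-23a-3p: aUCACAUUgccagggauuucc
mmu-miR-27a-3p: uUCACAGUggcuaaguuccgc
mmu-miR-24-3p: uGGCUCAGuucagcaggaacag
mmu-miR-191-5p: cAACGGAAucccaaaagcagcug
mmu-miR-22-3p: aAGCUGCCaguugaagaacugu

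No 2 of these 9 share a seed. The 2 seeds that recurred among all domain microRNAs were AAAGUGC, of miR-106b-5p and miR-93-5p, and AGCAGCA, of miR-195a-5p and miR-497a-5p. The longest peak held Mir150, Mir21a and Mir191 in HSC 2, LSC 1 and LSC 2 and not in HSC 1. Mir23a, Mir27a and Mir24-2, a cluster of 1 transcript at the Zswim4 domain, lay in the longest peak in HSC 1 alone, although that peak was 12105, 11443, 7776 and 7876 bp long. Mir22 lay in it in HSC 1, HSC 2 and LSC 2. The strand of these genes does not enter, since CUT&Tag peaks have none.

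Long non-coding RNA genes overlapped 335 domains (20.5%). Neat1, the scaffold RNA of paraspeckles, lay in the Frmd8 domain at chr19:5838358-5853720, where the longest peak was 13368 bp in HSC 1, 14483 bp in HSC 2, 6374 bp in LSC 1 and 13720 bp in LSC 2. The snoRNA host gene Snhg3 lay in the Phactr4 and Rcc1 domain, with 12869, 8213, 4228 and 13008 bp. LSC 1 was the lowest library at both. These 2 were chosen after their values were seen.

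Length differences between the populations had named extremes in both directions. Both HSC libraries were longer than both LSC libraries in 334 domains (20.5%), against a background of 16.4% over all 15337 regions with a peak in all 4 libraries, and both LSC libraries were longer in 169 (10.3%), against 31.6%. The rule used length, so nothing is read from these shares. Domains were ranked by the difference of the mean log2 length, which favours ratios over differences in bp. By this measure the largest difference towards HSCs was at S100a9 (chr3:90688749-90698002), with 7407 bp in HSC 1, 8716 bp in HSC 2, 1278 bp in LSC 1 and 4099 bp in LSC 2. It was followed by Lst1 and Ltb in the MHC class III region (10329, 23647, 3883 and 5922 bp), a domain that also holds Tnf, and by the domain of Ell, an elongation factor gene, with Fkbp8 and Kxd1 (19367, 29065, 4812 and 11314 bp). Then came Dapk3, Eef2 and Pias4, Pilra, and Crtc2, Dennd4b and Slc39a1.

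Towards LSCs the largest log2 difference was at the domain of Etv6, a transcription factor gene needed for HSC survival, and the predicted gene Gm46977 (chr6:134033384-134042579). It measured 2152 bp in HSC 1, 5340 bp in HSC 2, 8778 bp in LSC 1 and 8896 bp in LSC 2, and was made of 6, 2, 1 and 1 peaks in the same order. Kif17 and Sh2d5 followed (3740, 4514, 6052 and 17600 bp), with a wider gap in bp, then Ccdc180, Fam160b1, Creb1 and Mt1. Creb1, which encodes the cAMP-responsive factor CREB, measured 1464, 4207, 5470 and 6232 bp. Mt1, which encodes a metallothionein, measured 1924, 4576, 6596 and 7138 bp. In all 6 the shortest library was HSC 1.

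Peak strength gave a comparison that the rule did not use directly, although long peaks are also strong ones. The median fold of the strongest peak was 45.2 in HSC 1, 62.6 in HSC 2, 159 in LSC 1 and 119 in LSC 2, and in the short shared regions 24.3, 29.9, 95.8 and 60.0. The raw folds thus followed the libraries more than the regions. As percentiles the domains stood at medians of 87.7, 88.0, 83.1 and 85.4, and the short shared regions at 59.7, 58.9, 61.7 and 60.7. The domain medians were higher in both HSC libraries, at 87.8 ± 0.251 against 84.2 ± 1.64 (SD, n = 2 each), a difference of -3.63 for LSCs minus HSCs (two-sided exact permutation p = 0.33).

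By domain, both HSC libraries had the higher fold percentile in 576 (35.3%), against a background of 25.1% over all regions with a peak in all 4 libraries. Both LSC libraries were higher in 252 (15.4%), against 26.1%. Over the 9497 gene-end regions with a peak in all 4 libraries the backgrounds were 20.9% and 28.5%. Without LSC 1 the domains higher in LSCs numbered 422, and without HSC 1 they numbered 380. With 1 library left out, 1 group holds a single library, so its values avoid overlap more easily, and the domains were chosen anew. These counts are therefore not directly comparable with 252, and the same holds for such counts in the lists below.

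Some domains were among the strongest regions in every library. The highest minimum percentile was at Hjurp (chr1:88271061-88281064), with 99.8 in HSC 1, 99.86 in HSC 2 and 99.89 in both LSC libraries and a longest peak of 5314, 5757, 5797 and 5785 bp. Next were Hdlbp and Septin2 (99.73, 99.78, 99.88 and 99.85), Cyc1 with Sharpin, Gna15 with Ncln and S1pr4, and Anp32a. Cyc1 encodes cytochrome c1 of the respiratory chain, and S1pr4 a sphingosine phosphate receptor of blood cells. The lowest minimum percentiles were at Syngr3 with Zfp598 (18.99, 54.8, 42.1 and 46.8), Pgk1 (20.2, 37.8, 42.0 and 45.7), S100a9, Ngp and Pilra. Broad peaks were therefore not always strong ones.

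Single domains differed by far more than the median. Bcl2, an anti-apoptotic gene, stood at 41.3 in HSC 1, 40.5 in HSC 2, 71.2 in LSC 1 and 64.4 in LSC 2, and the LSC libraries were higher. Itga1, Bace1, Man1a, Bckdk with Kat8, and Eif3i with Tmem234 were the other 5 largest differences towards LSCs. Towards HSCs the 6 largest were Il27, Pilra, Lipg, Cd177, Fgr and S100a8. Il27, a cytokine gene, stood at 82.1, 87.7, 30.9 and 28.3. Cd177, a surface glycoprotein gene of neutrophils, stood at 90.1, 83.8, 32.9 and 51.5, and Fgr, a myeloid Src-family kinase gene, at 77.1, 88.9, 33.0 and 46.9. At each of these 3 both HSC libraries were above both LSC libraries.

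For the gene lists below, the shares to read each count against are those of all 1633 domains, 35.3% higher in both HSC libraries and 15.4% higher in both LSC libraries, and the 12.2% of all protein-coding genes that lay at domains. Of the genes with a gene-end peak in all 4 libraries, 24.7% lay at domains. That share is the closer one for lists whose genes are nearly all occupied. A value belongs to the whole domain, which several genes may share, so the longest or strongest peak need not lie at the gene named. The median fold percentile of each list is set against the medians of all domains, 87.7 in HSC 1, 88.0 in HSC 2, 83.1 in LSC 1 and 85.4 in LSC 2.

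Granulocyte and monocyte genes included domains of both directions. Of 34 list genes 22 lay at 21 domains, where 12.2% of all protein-coding genes did, and 31 of the 34 were occupied at a gene end in all 4 libraries. The fold percentile was higher in both HSC libraries at 11 of these domains and in both LSC libraries at 4, which is near the share of all domains for the latter. Without HSC 2 the latter count was 2. The median percentile of the list was 92.4, 92.1, 70.1 and 81.2. The groups overlapped at the 6 domains of Lyz2, Ncf1, Cyba, Coro1a, Fcer1g and Ly86. The 4 higher in LSCs were Elane with Prtn3, Mpo, Ctsg and Cd68, of which the first 3 domains hold genes of primary granule proteins. Mpo, the myeloperoxidase gene, stood at 53.3 in HSC 1, 73.1 in HSC 2, 85.8 in LSC 1 and 74.9 in LSC 2, and its longest peak was 2429, 8048, 8814 and 6618 bp. Ctsg, which encodes cathepsin G, stood at 60.5, 73.6, 81.1 and 85.4. The LSC libraries were higher at both genes, at Mpo by a small margin between HSC 2 and LSC 2.

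At S100a8, S100a9, Ngp, Lcn2 and Itgb2 the HSC libraries were higher, and these 5 were picked from the list after their values were seen. The others of the 11 domains higher in HSCs were those of Tyrobp, Fcgr3, Ncf4, Cd33, Csf2rb and Csf1r. S100a8, which encodes a subunit of calprotectin, stood at 86.7 in HSC 1, 88.9 in HSC 2, 36.9 in LSC 1 and 56.0 in LSC 2. S100a9, its partner, stood at 70.6, 64.9, 22.4 and 38.0. Ngp, a secondary granule gene, stood at 66.3, 57.8, 24.0 and 43.7, and Lcn2, which encodes lipocalin 2, at 92.4, 92.1, 49.1 and 76.3. Itgb2, the integrin chain CD18, stood at 94.5, 99.2, 48.5 and 69.0. LSC 1 was the lowest library at all 5, and LSC 2 was below both HSC libraries at all 5 as well. The low-CpG promoters shown for S100a8 and S100a9 and those of Elane and Prtn3 thus belong to domains with opposite directions. Granulocyte and monocyte genes as a list had a gene-end peak in 33 of 34 cases in each HSC library, 31 in LSC 1 and 32 in LSC 2. Markers of other lineages were occupied in the most cases in HSC 2, which has the most peaks. Of 16 T and NK cell markers 7 were occupied in HSC 1, 11 in HSC 2 and 3 in each LSC library. Of 12 B cell markers 6, 10, 4 and 3 were, and of 16 erythroid markers 7, 11, 5 and 3. Of 12 megakaryocyte markers 4, 7, 5 and 2 were, and of 10 mast cell and eosinophil markers 2, 5, 3 and 3. Of 14 endothelial and stromal markers 4, 7, 4 and 2 were. In the megakaryocyte, mast cell and endothelial lists HSC 1 was not above both LSC libraries. The part of these markers in the differences above was not tested.

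Myeloid transcription factors and immediate early genes had counts higher in HSCs above the share of all domains. At domains both lists hold Junb, Fos, Fosl2, Klf2, Klf6, Jun and Fosb, so their counts are not separate results. All of these shared genes but Junb were counted as higher in HSCs in both lists. Of 40 myeloid transcription factor genes 25 lay at domains, and the fold percentile was higher in both HSC libraries at 15 and in both LSC libraries at 1, Myb. The last count was 4 without LSC 1 and 3 without either HSC library. The median percentile of the list was 91.5, 94.2, 74.5 and 83.7. Spi1, which encodes PU.1, stood at 89.4 in HSC 1, 80.4 in HSC 2, 52.9 in LSC 1 and 56.6 in LSC 2, and its longest peak was 8724, 7823, 6356 and 5966 bp. Both measures were higher in HSCs. Cebpa, a factor of granulocyte commitment, stood at 89.0, 97.2, 96.5 and 97.9, with overlapping groups.

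Immediate early genes, which respond within minutes to stimulation, lay at domains in 19 of 36 cases, and the fold percentile was higher in both HSC libraries at 15 and in both LSC libraries at none. The latter count was 2 without HSC 2 and 1 without LSC 1. The median percentile of the list was 92.1, 95.3, 73.4 and 78.3. Klf2, a Krüppel-like factor gene, stood at 98.1, 95.3, 51.2 and 64.7, Klf6 at 96.2, 98.7, 60.1 and 69.8, and Fosl2 at 97.5, 97.2, 73.4 and 74.1. Fos stood at 98.9, 97.3, 69.8 and 85.3, although its longest peak was 6453, 10882, 3011 and 14317 bp and the lengths overlapped. Zfp36, Junb and Ier2, the 3 longest of the list, had overlapping ranks, and Myc did too.

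Replication-dependent histone genes were uniform in direction. The annotation matched 29 of the 56 listed genes, and all 29 were occupied at a gene end throughout. There were 12 at 8 domains, and the fold percentile was higher in both HSC libraries at all 8. The median percentile of the list was 76.4, 85.7, 48.2 and 54.9, below that of all domains in every library. The domain of H4c8 on chr13:23523110-23540041 stood at 81.5 in HSC 1, 86.5 in HSC 2, 46.9 in LSC 1 and 56.2 in LSC 2, and its longest peak was 13958, 16932, 7225 and 7461 bp. The domain of H3c14, H3c15 and H2ac18 on chr3:96234988-96252637 stood at 96.8, 96.5, 62.6 and 79.6. The smallest difference between the population means was at H4c4, with 61.8, 71.2, 49.5 and 53.7. Histone genes are near-identical copies, so reads may be split among them, and 4 of the 8 domains had a long peak in all 4 libraries.

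Antigen presentation genes lay at some of the longest domains. Of 19 list genes 10 lay at 8 domains, all but B2m on chromosome 17. All 8 were longer in both HSC libraries. Of all domains 20.5% were, and of all regions with a peak in all 4 libraries 16.4%. The rule used length, so this direction of length is given as a description. The fold percentile was higher in both HSC libraries at 6. The median percentile of the list was 99.1, 98.1, 92.2 and 94.9. The domain that H2-D1, a classical MHC class I gene, shares with Atp6v1g2, Ddx39b and Nfkbil1 had a longest peak of 18881 bp in HSC 1, 18396 bp in HSC 2, 6036 bp in LSC 1 and 9175 bp in LSC 2, and stood at 99.1, 97.2, 82.6 and 94.8. H2-K1, the other classical gene here, measured 7356, 10287, 6351 and 6052 bp. The domain of Tap1, Tap2 and Psmb8, which encode the peptide transporter and an immunoproteasome subunit, measured 10837, 12328, 10585 and 6776 bp. At Psmb9, a further immunoproteasome gene, the fold percentile was higher in LSCs, by 0.22 points (99.5, 99.8, 99.81 and 99.87). The promoter windows of Psmb9 and Tap1 overlap, on opposite strands. A gene near more than 1 domain is given at the longest of them, and Tap1 is given with Tap2 and Psmb8. The values given for Tap1 therefore need not be those at its start. Class I genes are alike in sequence, which makes their values uncertain.

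Ribosomal protein genes had more domains higher in LSCs than in HSCs. Of 78 genes 43 lay at 42 domains, and all 78 were occupied at a gene end throughout. The fold percentile was higher in both LSC libraries at 16 and in both HSC libraries at 7. The latter count was 12 without LSC 1 and 11 without either HSC library, and without HSC 2 the split was 14 to 11. The median percentile of the list was 90.3, 86.7, 89.7 and 90.0. Rps15 stood at 63.0 in HSC 1, 82.2 in HSC 2, 87.6 in LSC 1 and 93.8 in LSC 2, and Rpl13 at 90.7, 80.6, 95.2 and 96.7. Rps9 went against them, at 91.8, 94.4, 63.7 and 76.6.

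**Figure D5:**
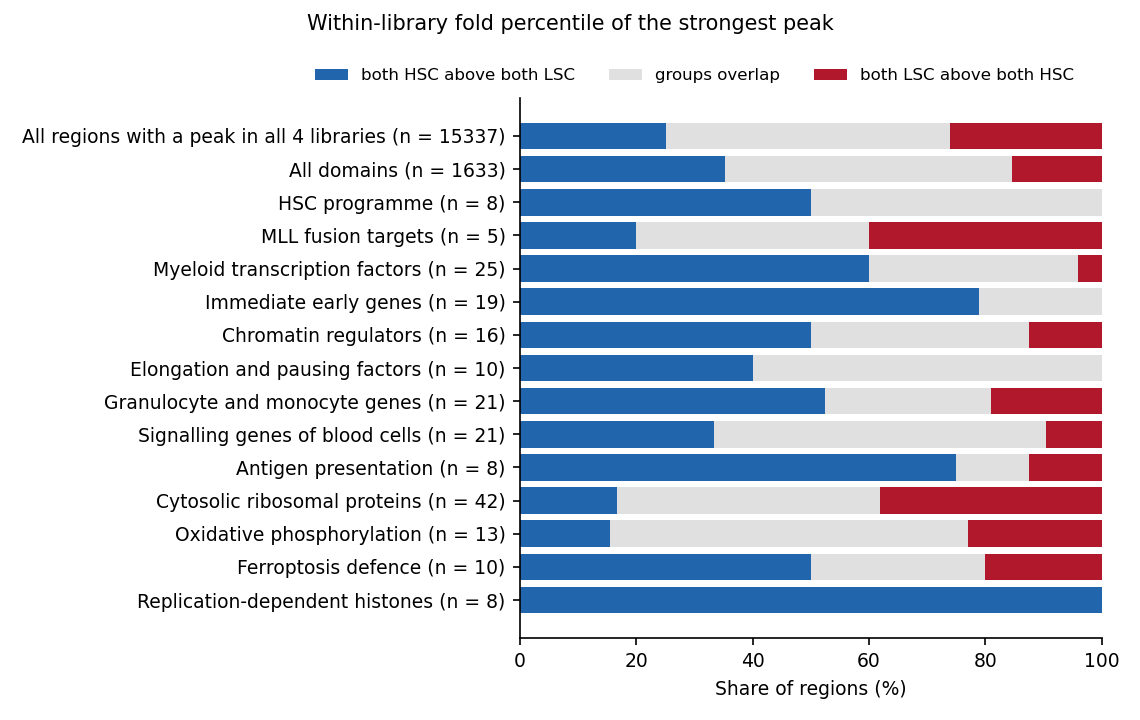
Share of regions in which the fold percentile was higher in both HSC libraries (blue), higher in both LSC libraries (red) or overlapping (grey), for all regions with a peak in all 4 libraries, all domains and each gene list with at least 5 domains. Histone and immediate early gene domains have no red part, and ribosomal protein domains have 16 of 42 in red.

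Of 30 targets of the MLL fusion 15 were occupied at a gene end in all 4 libraries and 5 (16.7%) lay at domains, against 12.2% of all protein-coding genes. These were Zeb2, Cdk6, Myb, Myc and Bcl2. Among them 3 were longer in both LSC libraries. Of all domains 10.3% were, and of all regions with a peak in all 4 libraries 31.6%. The rule used length, so nothing is read from this count. Myb, a transcription factor gene that MLL-AF9 cells depend on, had a longest peak of 4056 bp in HSC 1, 3091 bp in HSC 2, 6979 bp in LSC 1 and 7491 bp in LSC 2, and stood at 79.4, 79.6, 83.6 and 90.2. Zeb2, a zinc finger repressor gene, measured 6700, 4428, 10574 and 12776 bp, but stood at 99.2, 99.5, 98.8 and 98.4, with the HSC libraries higher in rank. Myc measured 4483, 4494, 6595 and 5277 bp, longer in both LSC libraries, with overlapping ranks. Cdk6, a cell cycle kinase gene, overlapped in both measures. The Hoxa cluster and Meis1, the best known targets of the fusion, were not among the 5.

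Genes of the HSC programme were at domains in 8 of 37 cases, with 19 of the 37 occupied at a gene end in all 4 libraries. The 8 were Lyl1, Zfp36l2, Etv6, Fli1, Gfi1, Cxcr4, Ikzf1 and Foxo3. The fold percentile was higher in both HSC libraries at 4, and in both LSC libraries at none. Foxo3, which encodes a stress-response factor of quiescent HSCs, stood at 89.7 in HSC 1, 90.4 in HSC 2, 70.3 in LSC 1 and 71.5 in LSC 2, while its longest peak of 5678, 4919, 5351 and 4958 bp overlapped. Ikzf1, which encodes Ikaros, measured 2977, 4986, 8563 and 5687 bp, longer in LSCs, and stood at 74.8, 93.2, 72.1 and 74.0, higher in HSCs. Length and rank thus went opposite ways at Ikzf1, as at Etv6 and Zeb2. The margin in rank was small at Ikzf1, with 74.8 in HSC 1 against 74.0 in LSC 2. It was also small at Zeb2, where all 4 percentiles were near the top of the scale.

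Regulators of transcription and signalling were also present. Of 47 chromatin regulator genes 16 lay at domains, and the fold percentile was higher in both HSC libraries at 8 and in both LSC libraries at 2, Chd4 and Men1. Men1, which encodes the MLL partner menin, stood at 45.9, 56.9, 57.9 and 67.4. Of 25 genes of elongation and pausing 10 lay at domains, 4 higher in HSCs, close to the share of all domains, and none in LSCs. Among them were Cdk9 and Ccnt1, the kinase and cyclin of P-TEFb, and Hexim1, its inhibitor, which stood at 92.2, 94.1, 65.8 and 71.5. Of 46 signalling genes of blood cells 22 lay at 21 domains, 7 higher in HSCs and 2 in LSCs, close to the shares of all domains.

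The remaining lists gave fewer domains. Oxidative phosphorylation genes lay at domains in 13 of 44 cases, with 2 domains higher in HSCs and 3 in LSCs. Genes of ferroptosis defence did in 10 of 31 cases, with 5 and 2. Gpx4, the lipid peroxide reductase gene, stood at 87.2, 82.4, 72.0 and 79.2, higher in HSCs. Interferon response genes lay at domains in 3 of 20 cases and nuclear pore genes in 3 of 30, namely Rae1, Nup62 and Nup85. Of the 30 nuclear pore genes 29 were occupied at a gene end in all 4 libraries. Of 16 erythroid, 12 megakaryocyte and 12 B cell markers 1 each lay at a domain, Klf1, Gp1ba and Cd79a, and the last shares its domain with the signalling gene Arhgef1.

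The domains were unevenly spread along the genome. The rule keeps only regions within 1 kb of a protein-coding gene end, so domains per bin move with genes per bin by selection. Neither the bins nor the chromosome shares were set against short shared regions. The median gap between neighbouring domains was 193 kb, and 599 of 1613 gaps (37.1%) were under 100 kb. Of 2395 bins of 1 Mb with a protein-coding gene, 689 held a domain, and 88 bins with 5 or more held 660 domains. The fullest bin was 80 to 81 Mb on chromosome 10, with 21 domains and 54 genes, which holds Cirbp, Gpx4 and Gadd45b. The rank correlation of domains with genes per bin was 0.57, as a description. By chromosome, 22.0% of the genes of 17, 19.7% of 19 and 19.3% of 11 were at domains, against 1.86% of X, which had 11 domains, among them those of Pgk1, Btk and Rpl10. Chromosome Y had none.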

How the data were processed

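Sub1 CUT&Tag was measured in 2 HSC and 2 LSC libraries; for the HSCs the labels give 2000 to 5000 cells, and 17 to 20 PCR cycles for the libraries. Per the submitters' processing notes the tools were FastQC 0.11.5, Bowtie2 2.2.9, MACS2 and ChIPseeker with mm10; parameters and any control are not given in the sources used here. The authors deposited 1 peak list per library. The columns used are peak position, the fold (a ratio over background), the deposited −log10 p and −log10 q, and the deposited score, which is 10 times −log10 q. The lists hold no counts, so depth and counting intervals are unknown and count models were not used.

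Peaks on the main chromosomes were merged at an overlap of 1 bp, and domains were selected at 4000 bp and 1 kb with Python 3.11.15, NumPy 2.4.6, pandas 2.3.3 and SciPy 1.17.1. Gene ends came from RefSeq (GRCm38.p6); strand came from the promoter table for 17491 genes. Fold was ranked within each library. Group differences were tested with the two-sided exact permutation test over libraries. The selection was tested on simulated lists with planted domains. Alternatives changed the length, the distance, the peak filter, the list size, the ranking value and each library in turn. Domains and genes were named as the longest, the most different, the strongest and weakest, those at the threshold and the leading list members; further list members were named after their values were seen. The members and gene lists were chosen with earlier results of these data known. Equal replicate numbers share only a number, since the labels do not say that they pair libraries. A motif of NRF1, also searched, is not reported here. A few further results are not reported here.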

Additional observations from a re-analysis of the deposited data

How the results depend on the processing

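The number of domains was 3132 with a minimum peak length of 3000 bp, 871 with 5000 bp and 626 with a long peak in all 4 libraries. It ranged from 992 (without LSC 2) to 1547 when 1 library was left out. The domains with a fold percentile higher in both LSC libraries numbered 114 with 5000 bp, 70 with a long peak in all 4 libraries, and 211 to 422 with 1 library left out; those higher in HSCs numbered 360, 276 and 538 to 719. With 1 library left out the groups also avoid overlap more easily, so those counts are not directly comparable with the counts from all 4 libraries. The share of domains held by 1 peak differed by 3.098 percentage points with equal-sized lists, and by -2.106 (without HSC 1) to 22.689 with 1 library left out. The log2 difference in the median longest peak, LSCs minus HSCs, was -0.087 and ranged from -0.232 to 0.107, the latter without LSC 1, so its direction rests on that library. The difference in median fold percentile was between -4.653 and -1.935 over the libraries left out. With a replicate block, pairing equal numbers, the difference was -3.627 with p = 0.5, the smallest an exact sign-flip test over 2 pairs allows; the deviations of equally numbered libraries correlated at 0.17 over 15337 regions and at 0.31 over the domains. No test could pass 0.05 in this design, so no call was gained or lost. The counts for gene lists, added after the data were seen, moved by over 1.5 times in 40 of 192 values. Read depth is unknown and limits every comparison of peak number and length.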
